A study of Mus musculus with 4 samples.

Results

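The glutathione S-transferases, UDP-glucuronosyltransferases and sulfotransferases of mouse liver were followed as 57 of the 45101 probe sets of the deposited table, taken wherever the array annotation gave exactly 1 gene symbol and that symbol began with Gst, Ugt or Sult. These 57 probe sets stood for 45 of 18194 genes, of which 21 were Gst, 11 Ugt and 13 Sult genes. The livers came from male C57BL/6J mice, fed from an age of 8 to 12 weeks for 20 weeks on a high-fat diet (45% of energy from fat) or a low-fat diet (10%), in both of which palm oil stood in for lard. In the last week the mice were injected into the peritoneal cavity with clodronate liposomes, which kill phagocytes such as the Kupffer cells, the macrophages of the liver, or with phosphate-buffered saline (PBS). There were 2 high-fat groups, given clodronate or PBS, and 2 low-fat groups, given clodronate or PBS. Equal amounts of liver RNA from each mouse were pooled, 10 mice to a high-fat pool and 8 to a low-fat pool, and each pool was measured on 1 Affymetrix array. The study asked how Kupffer cells bear on fat storage in the liver.

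A group was thus 1 array with no replicate, the spread between mice was not measured, and the number of arrays limits the precision. No empty liposomes were given, so that clodronate, the liposomes and the loss of phagocytes cannot be told apart. Values are GCRMA expression on the log2 scale, and a value below 4 was taken as not measurable. The median of an array over all probe sets lay between 2.73 and 2.79, and between 33.5% and 34.5% of probe sets were at 4 or above. All 12 Kupffer cell markers fell after clodronate in limma, 9 of them also without the mean-dependent prior (not Cd5l, C1qb and Marco), and their summed linear signal was 334 with clodronate and 6211 with PBS on the high-fat diet, and 255 with clodronate and 6741 with PBS on the low-fat diet. Of 11 hepatocyte markers 0 were called for clodronate or diet. Alb ranged from 14.50 to 14.54 over the arrays, Cps1 from 13.13 to 13.34 and Ass1, the dimmest of these markers, from 5.05 to 5.56. Of 10 cholangiocyte markers, 8 had a probe set and only Sox9 reached 4.

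These 3 families carry out the conjugation step of detoxification. Glutathione S-transferases join the thiol of glutathione to electrophiles, UDP-glucuronosyltransferases of the endoplasmic reticulum add glucuronic acid to hydroxyl and other groups of bilirubin, steroids, bile acids and drugs, and cytosolic sulfotransferases move a sulfonate group from the donor PAPS onto phenols, steroids, bile acids and amines. Hepatocytes hold most of this activity in the liver, and the nuclear receptors CAR, PXR and PPARα, the aryl hydrocarbon receptor and the factor NRF2 are known to control many of these genes.

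Of the 45 genes, each represented by its probe set with the highest mean, 34 reached 4 on some array, 19 of 21 Gst, 9 of 11 Ugt and 6 of 13 Sult genes. The other 11 lay below 4 on all 4 arrays, so that a difference in them could not be measured. They included Sult1e1, which conjugates oestrogens, at no more than 2.30, the hydroxysteroid sulfotransferase Sult2a2 at no more than 2.17 and Sult3a1 at no more than 2.01, genes known for higher expression in female than in male mouse livers. Ugt8a, which makes galactosylceramide in myelin-forming cells, and Sult4a1, known from brain, were at most at 2.33 and 2.71. The highest value among the undetected genes was 3.45, of Ugt2b37 in the high-fat PBS pool, against 2.94 in the low-fat PBS pool. Gstcd, a protein with the C-terminal domain of a glutathione transferase, was the single detected gene below 4 on an array, at 3.91 in the low-fat PBS pool. The Ugt1a genes, among them Ugt1a1, which conjugates bilirubin, were no members, because their 3 probe sets carried 8 symbols each. Those probe sets lay between 12.16 and 12.85 on every array.

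For diet, 0 members passed the test as lower, though Ugt2b38 and Gstp3 averaged -0.78 and -0.65. The high-fat diet went with higher signal of Sult1b1 and Ugt3a1, which passed at 0.69 and 0.54. Averaged over both injections, these were 2 of 34 detected members (5.88%) past an adjusted p of 0.05 in a limma additive model with Benjamini-Hochberg adjustment over 8650 genes, against 1.69% of all genes, of which 0.867% rose and 0.821% fell. The count was 1 of 9 Ugt, 1 of 6 Sult and 0 of 19 Gst genes, and 11 of 34 members had an unadjusted p under 0.05, as did 1141 of all 8650 genes. The model has 1 residual degree of freedom, which holds array noise together with any difference of the diet effect between the injections. Its p-values rest on the spread between these 4 pools only, with 1 degree of freedom from the gene itself and 8.46 from genes of like mean. A gene's own spread thus weighs little in them. Both calls rest on letting the variance depend on the mean. In limma without that prior 0 of 34 members and 0 of 8650 genes were called for diet, with 7 members and 894 of all genes at an unadjusted p under 0.05.

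Sult1b1 encodes a sulfotransferase of thyroid hormones and small phenols. It was at 8.34 with clodronate and 8.35 with PBS on the high-fat diet, against 7.70 with clodronate and 7.60 with PBS on the low-fat diet. Both high-fat pools lay above both low-fat pools, by 0.64 with clodronate and 0.75 with PBS, which is 1.56-fold and 1.68-fold. The averaged difference was 0.69 ± 0.07 (SD of the differences with the 2 injections, n = 2; limma, Benjamini-Hochberg adjusted p = 0.0219, and 0.321 without the mean-dependent prior). Over 9 alternative settings the adjusted p of Sult1b1 in limma ran from 0.0141 to 0.321 and stayed under 0.05 in 5.

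Ugt3a1 belongs to a small family whose human member is known to use UDP-N-acetylglucosamine in place of UDP-glucuronic acid. Its values were 10.14 with clodronate and 10.42 with PBS on the high-fat diet, against 9.79 with clodronate and 9.69 with PBS on the low-fat diet. The high-fat pools were again higher, by 0.35 with clodronate and 0.73 with PBS. The averaged difference of 0.54 ± 0.27 (SD, n = 2) passed in limma with Benjamini-Hochberg adjustment (adjusted p = 0.0344, and 0.38 without the mean-dependent prior), and did so in 4 of 9 alternatives, with adjusted p between 0.0186 and 0.38. The gene has 2 detected probe sets, whose diet differences ran from 0.35 to 0.62 with clodronate and from 0.47 to 0.73 with PBS. The neighbouring gene Ugt3a2 differed by 0.05 and 0.15 and was not called.

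The largest differences in the other direction were those of Ugt2b38 and Gstp3, which did not pass. Ugt2b38, of the subfamily that conjugates steroids and bile acids, was at 5.77 with clodronate and 6.40 with PBS on the high-fat diet, against 6.41 with clodronate and 7.33 with PBS on the low-fat diet. It averaged -0.78 ± 0.21 for diet (SD, n = 2; limma, Benjamini-Hochberg adjusted p = 0.0543), with the high-fat clodronate pool lowest and the low-fat PBS pool highest. Gstp3, a pi class glutathione transferase, was at 6.91 with clodronate and 6.85 with PBS on the high-fat diet, against 7.51 with clodronate and 7.55 with PBS on the low-fat diet. Both high-fat pools were lower, and the average of -0.65 ± 0.08 (SD, n = 2) had an adjusted p of 0.0559 in limma with Benjamini-Hochberg adjustment. Over the 9 alternatives the adjusted p in limma ran from 0.0477 to 0.321 for Ugt2b38 and from 0.0488 to 0.321 for Gstp3, each under 0.05 in 1, the robust fit.

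**Figure D1:**
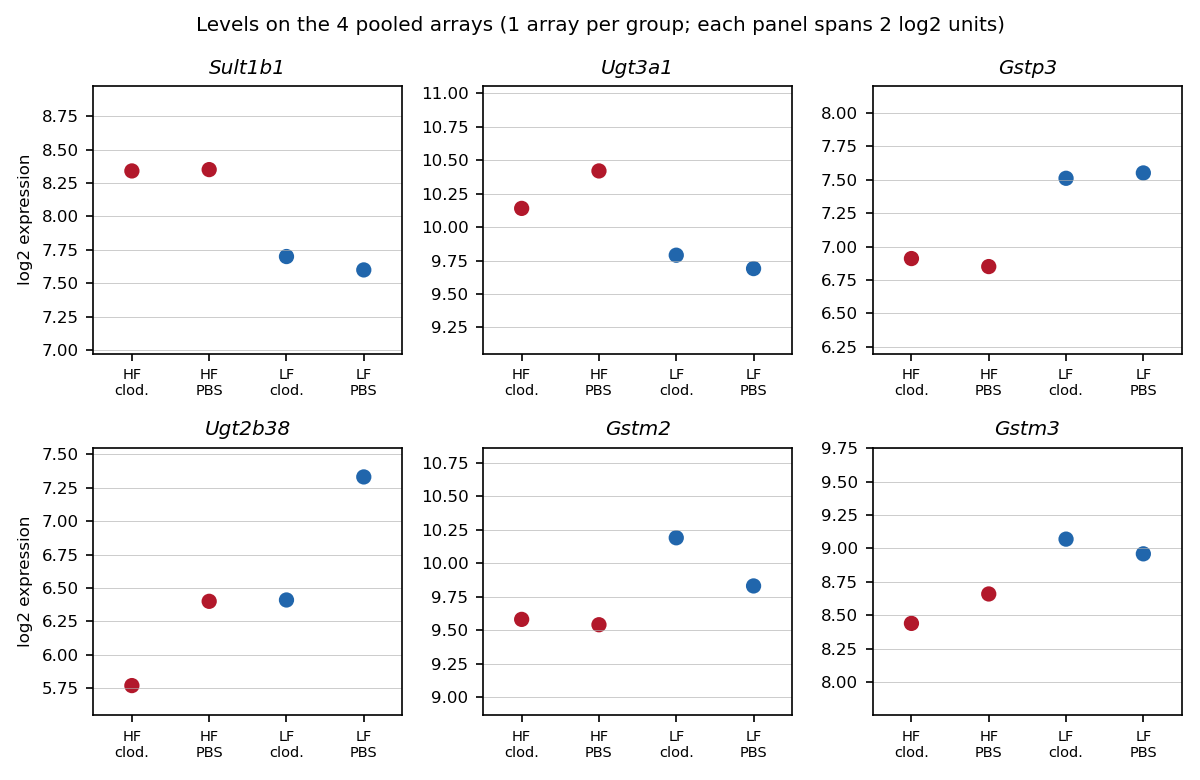
Log2 expression of Sult1b1, Ugt3a1, Gstp3, Ugt2b38, Gstm2 and Gstm3 on the 4 pooled arrays, with the high-fat (HF) pools in red and the low-fat (LF) pools in blue, clodronate left of PBS within each diet. Each point is 1 array with no error bar, each panel spans the same height of 2 log2 units, and the levels of different genes cannot be set against each other. Both high-fat pools lie above the low-fat pools for Sult1b1 and Ugt3a1 and below them for Gstp3, Gstm2 and Gstm3, while Ugt2b38 at 5.77, 6.40, 6.41 and 7.33 also differs by injection.

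The promoters of these 4 genes, the members with the largest averaged diet differences in each direction, are shown for comparison. Each window runs from 250 bases before to 50 bases after a transcription start in RefSeq, on build GRCm38.p6, and is printed 5′ to 3′ on the strand of the gene. Capitals mark matches on either strand to 6 motifs that were picked with the results known: the antioxidant response element core TGACNNNGC, the xenobiotic response element core GCGTG, the nuclear receptor half-site AGGTCA, the STAT site TTCNNNGAA, the HNF1 half-site GTTAAT and the TATA box TATAAA. No matches of different motifs overlap in these windows.
Sult1b1, upstream start, chr5:87538146-87538445, minus strand: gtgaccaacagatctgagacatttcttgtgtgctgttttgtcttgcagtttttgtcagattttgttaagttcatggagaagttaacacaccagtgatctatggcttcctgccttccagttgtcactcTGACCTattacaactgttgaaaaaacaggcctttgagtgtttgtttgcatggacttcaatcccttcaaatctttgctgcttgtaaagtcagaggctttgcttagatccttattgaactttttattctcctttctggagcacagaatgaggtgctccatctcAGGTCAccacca
Sult1b1, downstream start, chr5:87536173-87536472, minus strand: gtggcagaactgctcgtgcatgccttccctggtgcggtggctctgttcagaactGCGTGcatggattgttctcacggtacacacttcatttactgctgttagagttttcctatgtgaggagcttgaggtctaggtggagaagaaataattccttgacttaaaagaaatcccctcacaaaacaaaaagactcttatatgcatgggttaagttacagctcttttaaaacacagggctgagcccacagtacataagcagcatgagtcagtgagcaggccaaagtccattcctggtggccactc
Ugt3a1, chr15:9279579-9279878, plus strand: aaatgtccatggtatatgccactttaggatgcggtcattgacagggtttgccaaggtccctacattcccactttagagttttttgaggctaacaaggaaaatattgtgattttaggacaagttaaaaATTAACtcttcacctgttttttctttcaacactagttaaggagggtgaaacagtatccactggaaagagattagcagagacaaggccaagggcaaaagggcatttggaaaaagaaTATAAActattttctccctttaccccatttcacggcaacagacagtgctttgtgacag
Gstp3, chr19:4059398-4059697, minus strand: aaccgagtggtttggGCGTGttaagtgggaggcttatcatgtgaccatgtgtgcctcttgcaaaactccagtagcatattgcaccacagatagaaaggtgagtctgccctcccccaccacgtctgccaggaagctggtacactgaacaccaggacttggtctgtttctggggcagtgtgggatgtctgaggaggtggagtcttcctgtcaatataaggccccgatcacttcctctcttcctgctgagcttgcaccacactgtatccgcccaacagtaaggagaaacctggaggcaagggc
Ugt2b38, chr5:87424154-87424453, minus strand: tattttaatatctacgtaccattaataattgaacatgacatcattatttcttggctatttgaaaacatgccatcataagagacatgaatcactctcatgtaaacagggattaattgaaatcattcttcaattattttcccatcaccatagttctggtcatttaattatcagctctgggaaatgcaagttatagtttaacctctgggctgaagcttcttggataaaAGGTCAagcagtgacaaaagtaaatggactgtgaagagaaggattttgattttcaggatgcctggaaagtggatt

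The upstream Sult1b1 window held the nuclear receptor half-site at 2 places, beginning at positions -123 and 39 from the start site, and that of Ugt2b38 held it at 1, beginning at -25. Among all 32851 promoter windows of the same length, 16.3% hold this motif, and 19.5% of the 41 windows of 31 detected members do. The Ugt3a1 window held an HNF1 half-site at -123 and a TATA box at -8. These motifs were found in 7.1% and 13.6% of all windows, and in 12.2% and 19.5% of the 41 windows of members. The xenobiotic response element core was present in 32.4% of all windows and in 22% of the 41 windows of members. It was found in the downstream Sult1b1 window at -196 and in that of Gstp3 at -235. The antioxidant response element core and the STAT site, in 12.4% and 8.3% of all windows, were not among the letters of these 5 windows and were found in 3 and 1 of the 41 windows of members. A match describes letters only, and the half-site was found in 1 of the 2 higher genes and 1 of the 2 lower genes.

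Among the glutathione transferases 0 of 19 genes were called for diet, with a median averaged difference of 0.02, against -0.04 over all 8650 genes. Differences between the classes were not tested. The 7 mu class genes, which conjugate epoxides and quinones and lie next to each other in 1 cluster, had a median difference of -0.22 with clodronate, with 7 of 7 below 0, and of -0.14 with PBS, with 6 of 7 below 0. With clodronate Gstm4 was at -0.01, and the 3 detected probe sets of Gstm1 ran from -0.20 to 0.02. Over all 8650 genes, 5615 were below 0 with clodronate and 4226 with PBS. With arrays centred on their medians or quantile normalized, 6 of 7 were below 0 under each injection. Of the 3 theta class genes, 2 were above 0 with clodronate and 3 with PBS, with medians of 0.03 and 0.30, and 3 of 3 were above 0 under each injection after either scaling of the arrays. The 3 alpha class genes had medians of 0.09 with clodronate and 0.07 with PBS. A probe set shared by Gsta1, Gsta2 and Gm3776 was no member, because it carried 3 symbols. It was higher on the high-fat diet, at 9.06 with clodronate and 9.09 with PBS, against 8.72 and 8.70 on the low-fat diet. Kappa class Gstk1, of mitochondria and peroxisomes, averaged 0.27 ± 0.07 (SD, n = 2; limma, Benjamini-Hochberg adjusted p = 0.112). Gstz1, the maleylacetoacetate isomerase of tyrosine breakdown, averaged 0.17 and omega class Gsto1 -0.04, though 2 probe sets of Gsto1 disagreed in sign in 3 of the 4 differences.

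Gstm2 was at 9.58 with clodronate and 9.54 with PBS on the high-fat diet, against 10.19 with clodronate and 9.83 with PBS on the low-fat diet. Gstm3 was at 8.44 with clodronate and 8.66 with PBS on the high-fat diet, against 9.07 with clodronate and 8.96 with PBS on the low-fat diet. For both genes the high-fat pools lay below the low-fat pools, by 1.53-fold and 1.55-fold with clodronate, and by 1.22-fold and 1.24-fold with PBS. The averaged differences were -0.45 ± 0.22 for Gstm2 and -0.47 ± 0.23 for Gstm3 (SD, n = 2 each; limma, Benjamini-Hochberg adjusted p = 0.0612 and 0.094). The Gstm3 probe set carries the _s_at ending, which the maker gives to probe sets that match several transcripts, as does the brighter probe set of Ugt3a1. A dimmer Gstm3 probe set, at no more than 4.25, differed by -0.25 with clodronate and 0.00 with PBS. The other 5 mu genes had medians of -0.20 with clodronate and -0.06 with PBS. Gstm3 and Gstm2, which are adjacent, had the lowest differences of the class with clodronate, whereas Gstm5 had the lowest with PBS, at -0.36, against -0.11 with clodronate.

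Gstp1, the other detected pi class gene, was at 13.93 with clodronate and 13.99 with PBS on the high-fat diet, and at 14.10 with each injection on the low-fat diet. Its averaged difference of -0.14 ± 0.04 (SD, n = 2) did not pass (limma, Benjamini-Hochberg adjusted p = 0.254). Gsta4, which clears the lipid peroxidation product 4-hydroxynonenal, differed by 0.09 with clodronate and 0.20 with PBS. Gstt2 differed by 0.03 with clodronate and 0.48 with PBS. Its low-fat PBS pool, at 9.19, stood apart from the other 3 pools, which lay between 9.59 and 9.67. Gstt3 differed by 0.31 and 0.30, close to the same size with either injection, and averaged 0.31 ± 0.01 (SD, n = 2; limma, Benjamini-Hochberg adjusted p = 0.302).

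**Figure D2:**
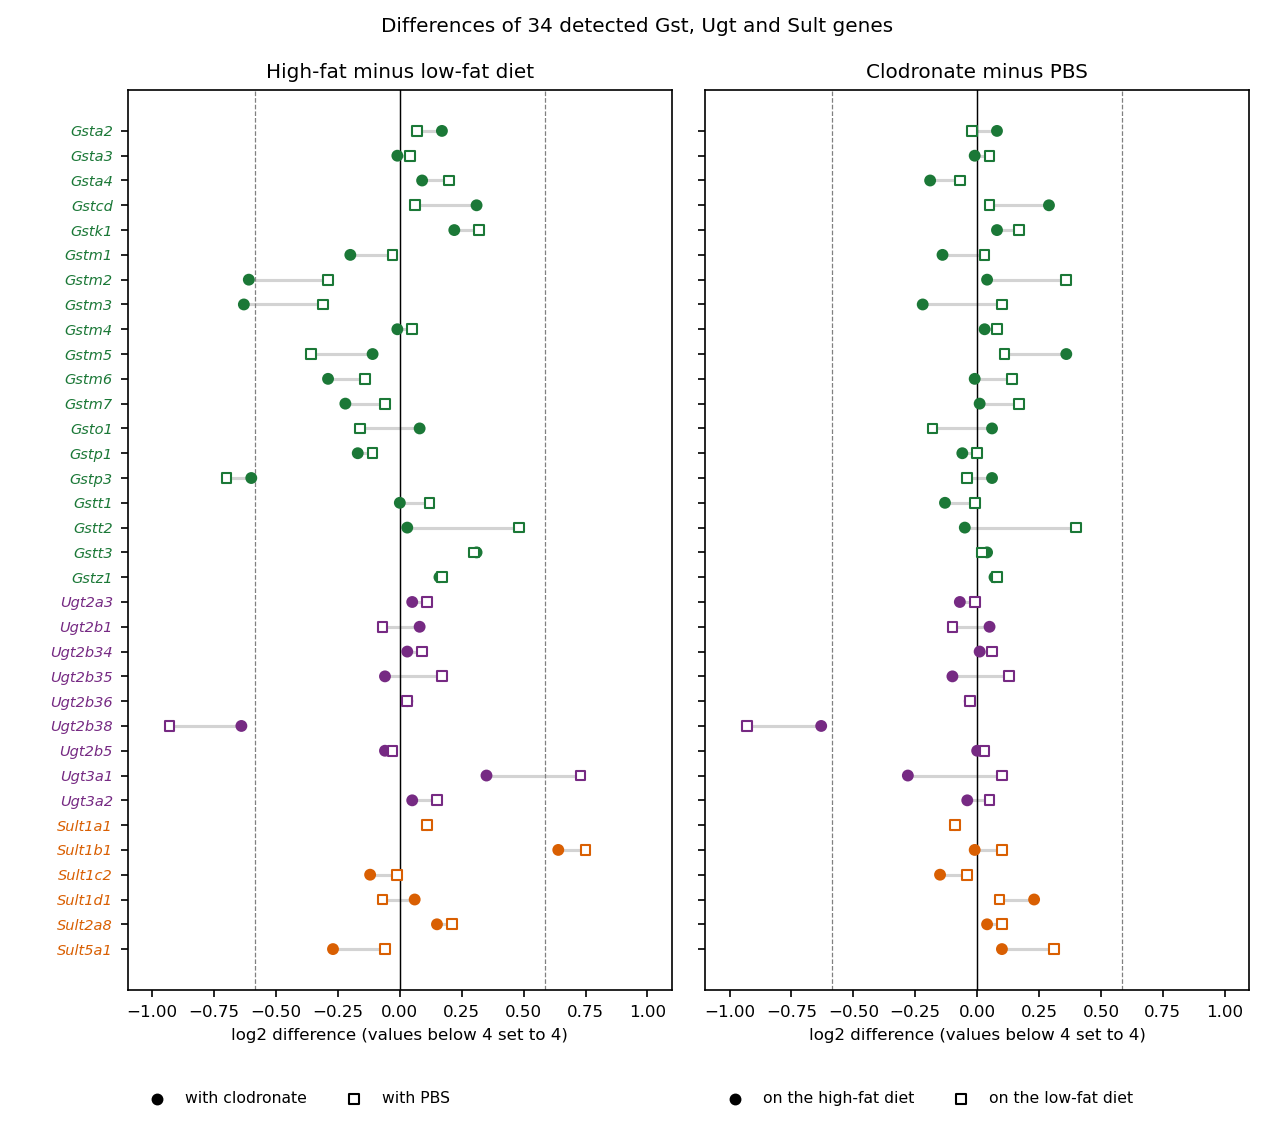
Log2 differences of the 34 detected Gst (green), Ugt (purple) and Sult (orange) genes, high-fat minus low-fat diet on the left and clodronate minus PBS on the right, each drawn for both levels of the other factor and joined by a grey line. Dashed lines mark 1.5-fold. With diet, Sult1b1 lies beyond the upper line, and Ugt2b38 and Gstp3 beyond the lower line, in both pairs, and Ugt2b38 is the only gene beyond it for clodronate.

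Apart from Ugt2b38 and Ugt3a1, the 7 other detected Ugt genes had averaged differences between -0.05, of Ugt2b5, and 0.10, of Ugt3a2. The median was 0.06 over the 9 Ugt genes and 0.05 over the 6 Sult genes. Sult2a8, known in mouse for sulfation of bile acids at the 7α-hydroxyl group, was at 12.58 with clodronate and 12.54 with PBS on the high-fat diet, against 12.43 with clodronate and 12.33 with PBS on the low-fat diet, an average of 0.18 ± 0.04 (SD, n = 2; limma, Benjamini-Hochberg adjusted p = 0.222). Sult1a1, the phenol sulfotransferase, differed by 0.11 with each injection. Sult5a1 and Sult1c2 differed by -0.27 and -0.12 with clodronate and by -0.06 and -0.01 with PBS.

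Sult1b1 and Ugt2b38 are separated in the RefSeq gene order only by Ugt2a1 and Ugt2a2, within a run of 13 adjacent Ugt2 and Sult1 genes. The 9 detected members of this run included Ugt2b36, with an averaged diet difference of 0.03, Ugt2a3 with 0.08 and Sult1d1, which sulfates catecholamines in mouse, with -0.01. Neighbours in the run thus ranged from -0.78, of Ugt2b38, to 0.69, of Sult1b1. Ugt2a1 and Ugt2a2 share 1 probe set, at no more than 2.89 on any array.

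Counted by size, 0 of 34 members differed 2-fold with diet in either injection, where 1.1% of all genes did with clodronate and 0.671% with PBS. At 1.5-fold, 5 members (14.7%) differed with clodronate, Sult1b1 higher and Ugt2b38, Gstp3, Gstm2 and Gstm3 lower, against 6.47% of all genes, 1.69% higher and 4.79% lower. With PBS 4 members (11.8%) did, Sult1b1 and Ugt3a1 higher and Ugt2b38 and Gstp3 lower, against 3.62% of all genes, 2.15% higher and 1.47% lower. The count with clodronate depended on scaling, and was 1 after each array was centred on its median or after quantile normalization, when Sult1b1 alone stayed past 1.5-fold. Those 4 lower genes then differed by -0.50 to -0.53 with centring and by -0.48 to -0.55 with quantile normalization. The median of all genes was -0.08 in this pair and 0.00 after either scaling.

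**Figure D3:**
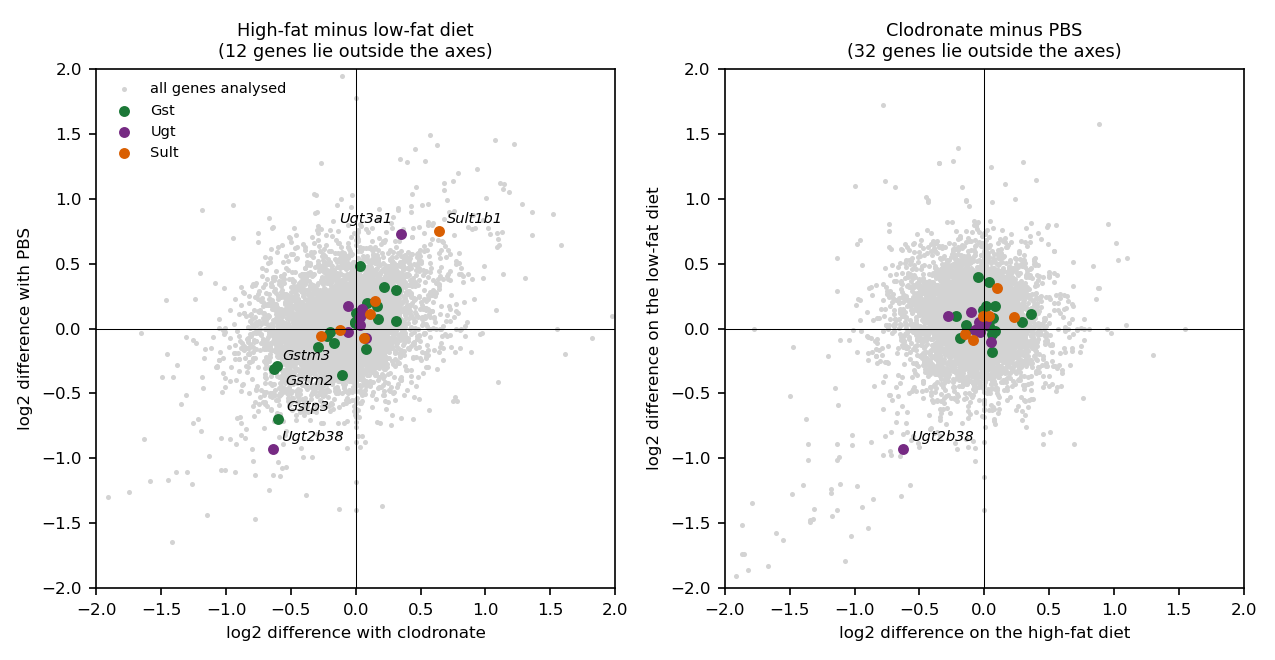
Log2 differences of all 8650 genes analysed (grey) and of the Gst, Ugt and Sult members (coloured), for diet with clodronate (x) against with PBS (y) on the left, and for clodronate on the high-fat diet (x) against the low-fat diet (y) on the right. The axes stop at 2 and -2, which leaves out 12 genes on the left and 32 on the right. Sult1b1 and Ugt3a1 lie to the upper right and Ugt2b38 and Gstp3 to the lower left for diet, and Ugt2b38 alone stands off the members for clodronate.

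No detected member passed the test for clodronate. In limma with Benjamini-Hochberg adjustment 0 of 34 members were called for clodronate averaged over the diets, against 1.09% of all genes. Without the mean-dependent prior 0 of 34 members and 39 of 8650 genes were called. In each of these fits 1 member, Ugt2b38, had an unadjusted p under 0.05, as did 410 of all 8650 genes with that prior and 441 without it. The medians on the high-fat diet were 0.03 for Gst, -0.04 for Ugt and 0.01 for Sult genes, against -0.05 over all genes. On the low-fat diet they were 0.05, 0.03 and 0.09, against 0.04 over all genes. On neither diet did a member differ 2-fold, where 0.902% of all genes did on the high-fat and 0.925% on the low-fat diet. In bulk liver, fewer cells of a type and less RNA per cell cannot be told apart.

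Ugt2b38 had the largest averaged clodronate difference of the members, and was called for clodronate in 0 of 9 alternatives. It was at 5.77 with clodronate and 6.40 with PBS on the high-fat diet, and at 6.41 with clodronate and 7.33 with PBS on the low-fat diet, 1.55-fold and 1.9-fold lower with clodronate. It was the 1 member of 34 (2.94%) at 1.5-fold on each diet, against 3.62% of all genes on the high-fat diet (2.98% lower) and 3.38% on the low-fat diet (1.63% lower). On the high-fat diet it was short of 1.5-fold after centring, at -0.56, and after quantile normalization, at -0.50. The averaged difference was -0.78 ± 0.21 (SD, n = 2; limma, Benjamini-Hochberg adjusted p = 0.0864, between 0.0736 and 0.331 over 9 alternatives). Of the hepatocyte markers 0 of 11 were called for clodronate, with a summed linear signal of 150411 with clodronate and 155439 with PBS on the high-fat diet, and of 151354 with clodronate and 154715 with PBS on the low-fat diet.

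The remaining members moved by less. Gstm5 averaged 0.23 ± 0.18 for clodronate, Gstm2 0.20 ± 0.22 and Gstt2 0.18 ± 0.32 (SD, n = 2 each), and none of these passed. Gstm2 was higher by 0.04 with clodronate on the high-fat diet and by 0.36 on the low-fat diet, and Gstt2 lower by 0.05 on the high-fat and higher by 0.40 on the low-fat diet. Sult1d1 was at 11.19 with clodronate and 10.96 with PBS on the high-fat diet, and at 11.13 with clodronate and 11.03 with PBS on the low-fat diet. It averaged 0.16 ± 0.09 (SD, n = 2), and its second probe set was also higher with clodronate on both diets. Sult5a1 averaged 0.20 ± 0.15, Sult1c2 -0.09 ± 0.08, Ugt3a1 -0.09 ± 0.27 and Ugt2a3 -0.04 ± 0.05 (SD, n = 2 each). For Ugt3a1 the difference was -0.28 on the high-fat and 0.10 on the low-fat diet, and its 2 probe sets disagreed in sign on each diet. Whether a clodronate difference depended on diet was not tested, since the model has no degree of freedom for it.

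Of 13 detected genes of glutathione synthesis and recycling, 0 were called for diet or clodronate. Among them Ggct, a gamma-glutamylcyclotransferase, differed by -0.40 with clodronate and -0.64 with PBS for diet, and Gclc, the catalytic subunit of the rate-limiting glutamate-cysteine ligase, by -0.12 and -0.04. Of 5 genes of UDP-glucuronate supply, among them Ugdh, and of 10 genes of PAPS supply and sulfatases, 0 were called for either. Of 5 detected efflux transporters, not all of them pumps of conjugates, 1 rose with diet, Abcc3, which exports glucuronides into blood, by 0.66 ± 0.04 (SD, n = 2; limma, Benjamini-Hochberg adjusted p = 0.00557). Abcc3 was at 9.95 with clodronate and 10.02 with PBS on the high-fat diet, against 9.32 with clodronate and 9.33 with PBS on the low-fat diet.

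Of 18 detected xenosensors and other regulators 2 rose with diet, the transcriptional repressor Bcl6, by 0.67, and Cebpb, by 0.39 (limma, Benjamini-Hochberg adjusted p = 0.00647 and 0.0445). Ppara differed by 0.33 with clodronate and 0.31 with PBS, Ahr by 0.38 and 0.52, and Nr1i3, which encodes CAR, by 0.33 and 0.91, and none of these passed (limma, Benjamini-Hochberg adjusted p = 0.0546, 0.0587 and 0.0632). Nr1i2, which encodes PXR, differed by 0.35 with clodronate and 0.13 with PBS. Nfe2l2, which encodes NRF2, differed by -0.04 and 0.08, and Arnt by -0.08 and -0.43, and these did not pass either. Of the 18 genes, 13 averaged above 0 for diet, with a median of 0.10, against 3370 of all 8650 genes. Of 12 detected target genes of these sensors 3 rose with diet, Cyp2b9, Cyp1a2 and Aldh1a1, and the median averaged difference of the 12 was 0.15. Cyp2b9 was at 5.90 with clodronate and 6.64 with PBS on the high-fat diet, and below 4 in both low-fat pools. Cyp2b10, the classical CAR target, was at 3.10 with clodronate and 5.77 with PBS on the high-fat diet and also below 4 in both low-fat pools, and was not called (limma, Benjamini-Hochberg adjusted p = 0.0521). Cyp1a2, a target of the aryl hydrocarbon receptor, rose by 0.63 ± 0.04 (SD, n = 2; limma, Benjamini-Hochberg adjusted p = 0.00101). For clodronate, 1 of the 12 was called, Hmox1, haem oxygenase, which fell by 2.03, and 0 of the regulators or efflux transporters were. Hmox1 was close to 4 with clodronate, at 4.32 on the high-fat and 4.03 on the low-fat diet, against 6.30 and 6.11 with PBS. Which cells this fall came from was not tested. Of 9 detected genes known to differ between male and female livers, 2 fell with diet, 0 rose, and 0 were called for clodronate. Those 2, Elovl3 and Cyp17a1, fell by 0.55 and 0.99 (limma, Benjamini-Hochberg adjusted p = 0.00361 and 0.0189). The list does not separate genes higher in males from genes higher in females. Its median averaged diet difference was -0.08, against -0.04 over all genes. Of the Kupffer cell markers 0 of 12 were called for diet, and of the endothelial and stellate markers 0 of 10 and 0 of 8 detected genes were called for diet or clodronate. Without the mean-dependent prior 0 of the diet calls of these lists remained in limma.

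**Figure D4:**
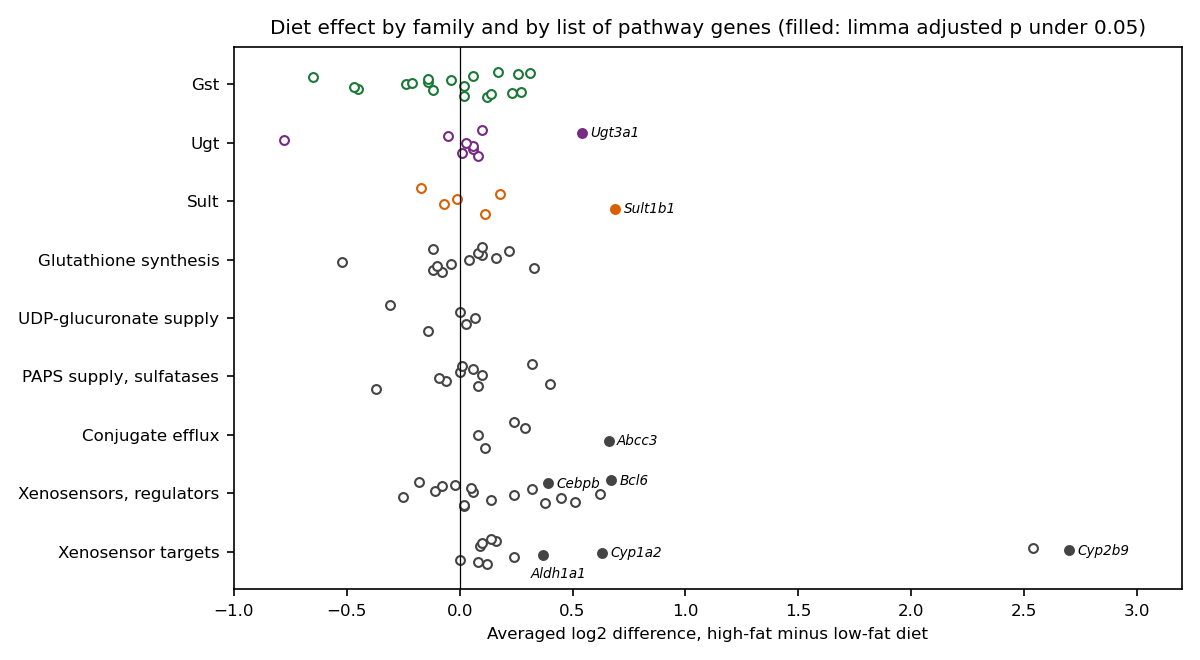
Averaged log2 difference, high-fat minus low-fat diet, of each detected gene (1 point) in the Gst, Ugt and Sult families and in 6 lists of pathway genes; the vertical spread within a row only separates the points. Filled points passed an adjusted p of 0.05 in limma and are named: Ugt3a1 and Sult1b1 among the members, and Abcc3, Bcl6, Cebpb, Cyp2b9, Cyp1a2 and Aldh1a1 in the lists.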

How the data were processed

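Liver RNA pools of 4 groups were measured on 1 single-colour Affymetrix array each. The authors deposited log2 expression values of 45101 probe sets for which the submitters' processing notes name GCRMA 2.24.1. This method corrects probes for background with a sequence model, brings arrays to 1 distribution and summarises probe sets, so small differences depend on that scaling. No further scaling was applied, and scanner files were not used here. Genes were named from the platform annotation, which gave 34958 probe sets 1 symbol, 932 several and 9211 none, and all 45 member genes were found by Entrez identifier in the RefSeq table of GRCm38.p6, with 0 symbols changed. A gene was represented by its probe set with the highest mean, and the 8650 genes reaching 4 on any array were analysed. For differences between 2 arrays any value under 4 was raised to 4; these were counted at 1.5-fold and 2-fold and have no test. Averaged effects of diet and of clodronate were tested in an additive model over the 4 arrays (R 4.3.3, limma 3.58.1), with values as deposited, a mean-dependent prior variance (8.46 prior and 1 residual degrees of freedom) and Benjamini-Hochberg adjustment. On simulated data with diet changes of 1.5-fold and 2-fold, the model missed most of the 1.5-fold and recovered most of the 2-fold changes. It made more false calls than its nominal rate. Without the mean-dependent prior it recovered none of these changed genes. The simulated spread depended on the mean, as that prior assumes, and no clodronate effect was simulated. The simulation therefore cannot decide between the fits with and without that prior. The members, gene lists and settings were chosen with earlier results of these data known. Named with values were members called in either effect, members differing 1.5-fold in any of the 4 pairs, and in each family the 3 with the largest averaged effect of each factor among genes at 4 or more on all arrays; further members illustrate classes and were picked after their values were seen. In the other lists, genes called or 2-fold different were named, at most 4 per list. Gclc, Ggct, Ugdh, Ppara, Ahr, Nr1i3, Nr1i2, Nfe2l2, Arnt, Cyp2b10, Alb, Cps1, Ass1 and Sox9 were added after their values were seen. Promoters came from RefSeq, GRCm38.p6, with windows for 40 of 45 member genes. Alternatives covered the floor, scaling, choice of probe set, filter and variance model. Python 3.11.15, numpy 2.4.6, pandas 2.3.3 and matplotlib 3.10.9 were used.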

Additional observations from a re-analysis of the deposited data

How the results depend on the processing

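No paired analysis was possible because each group has 1 array and the labels give no replicate numbers, and no array could be left out because the model then has no residual degree of freedom. The count of 0 members called for clodronate was the same under all 9 alternatives. The count of 2 called for diet became 0 without the mean-dependent prior, with values below 4 set to 4 in the fit, in a fit on probe sets and with no filter on dim genes, 1 with only genes reaching 4 on all arrays, 3 with centred arrays, where Gstk1 joined at 0.31, and 5 in the robust fit, 2 higher and 3 lower, Gstm2, Gstp3 and Ugt2b38. Genes called for diet numbered 146 of 8650, against 0, 60, 53, 42, 90, 165 and 185 in these fits in the same order. The 53 are probe sets, the 42 are of 18194 genes and the 90 of 7945 genes. After centring or quantile normalization the count at 1.5-fold was 0 in place of 1 for clodronate on the high-fat diet and 1 in place of 5 for diet with clodronate. With centring the medians for diet with clodronate were 0.10 for Gst, 0.13 for Ugt and 0.19 for Sult, in place of -0.01, 0.03 and 0.09. The other family medians moved by less than 0.1. Centring also turned the Ugt medians for clodronate, to 0.03 on the high-fat and -0.01 on the low-fat diet, in place of -0.04 and 0.03, and single pairwise differences near 0 changed sign, such as that of Gstt2 for clodronate on the high-fat diet, -0.05, which became 0.02. Among the averaged effects of the named members, signs changed for diet, to 0.00 for Sult1c2 with quantile normalization, and to 0.04, 0.00 and 0.02 for Sult1d1 with centring, quantile normalization and the mean of probe sets. The cause of these changes was not tested. Dim genes limit the data at values below 4, where 11 of 45 members lay on every array.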
